A study of Mus musculus with 7 samples.

Results

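The proteasome genes were taken as the rows of the mouse fibroblast stress data whose symbol is Psma, Psmb, Psmc, Psmd, Psme, Psmf or Psmg followed only by digits. Such a symbol was found for 48 of 49382 genes, and 45 of them had a mean of at least 2 TPM over 7 RNA-seq libraries, out of 12909 genes above that level. TPM is the share of a library taken by the transcripts of a gene after correction for their length, scaled to 1000000 per library. The 3 genes under that mean were Psma8, Psmb9 and Psmb11, and membership was set by symbol and mean TPM only. The genes described in full below include those at the extremes of each condition. Psma8 lay just outside the limit at a mean of 1.96 TPM, and Psmb8 lay just inside it at 3.79 TPM. Psma1 and Psmd1, which mark the module, were present in every library at 124 to 151 TPM and 89.3 to 128 TPM.

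The libraries came from wild type primary mouse embryonic fibroblasts (MEFs), grown out of embryos of day 13.5 to 14.4 without head and fetal liver and used at passage 3 to 7. Cells were plated at 100000 per well, and after a night in culture they were left as control, kept for 10 h in medium without glucose (glucose depletion) or without glutamine (glutamine depletion) or at 0.1% oxygen (hypoxia), or treated with 1 μM thapsigargin for 10 h (ER stress), 10 μM sodium arsenite for 3 h (oxidative stress) or 100 mM added NaCl for 3 h (osmotic stress). Thapsigargin blocks the calcium pump of the endoplasmic reticulum (ER), and arsenite reacts with protein thiols. Each condition was a single library, so no difference could be set against replicate error, no p-value is given, and all 6 comparisons use the same control library. The time at which control cells were collected is not given in the sources used here, so time in culture and treatment cannot be told apart.

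The libraries had 19819 to 21154 genes above 0 TPM, and their depth is unknown because TPM keeps no read counts. All 10 fibroblast markers were above a mean of 2 TPM, while macrophage, endothelial and epithelial markers summed to at most 13.8 TPM, 7.31 TPM and 11.6 TPM. Of these 14 markers of other cells, only Cd68, Kdr and Krt18 reached a mean of 2 TPM, and none was at 0 in all libraries. Genes known to respond to each treatment are given on the log2(TPM + 1) scale. Hmox1 was 4.50 above control in oxidative stress, Hspa5 3.44 in ER stress, Bnip3 4.85 in hypoxia, Slc38a2 2.22 in osmotic stress and Atf3 2.47 in glutamine depletion, and Txnip was at -2.07 in glucose depletion. Hspa5, Bnip3 and Slc38a2 were more than 2-fold from control only in the condition named. Atf3 was also at 4.81 in ER stress, 4.47 in oxidative stress and 1.82 in osmotic stress. Txnip was also at -3.12 in osmotic stress, and Hmox1 at 2.75 in ER stress. In bulk RNA, fewer cells with a transcript and less of it per cell cannot be told apart.

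The proteasome degrades proteins tagged with ubiquitin. Its core particle is a barrel of alpha and beta rings, with the proteolytic sites inside the beta rings, and its cap (regulatory particle) recognises, unfolds and feeds in the substrate through a base with a ring of ATPases and a lid that removes ubiquitin. Dedicated assembly factors build both parts, other activators and an inhibitor can bind the ends of the barrel, and interferon replaces the catalytic beta subunits with immunoproteasome forms. When proteasome activity is blocked, the transcription factor NRF1 (Nfe2l1) is released from the ER membrane and raises proteasome genes together through antioxidant response elements, whose core letters are TGACNNNGC.

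These letters were searched on both strands from 250 bases before to 50 bases after the RefSeq start of each gene. Promoters were found for 38 of the 45 genes, and 6 of them (15.8%) held TGACNNNGC, beside 14% of 27025 mouse promoters of the same length. The 6 matches are shown in the orientation of the gene with the motif in capitals, because this is the element named for coordinate control of the complex (RefSeq, GRCm38.p6). Psmb5 lies at chr14:54618024-54618052 on the minus strand, and the others are on the plus strand at chr11:70525338-70525366 for Psmb6, chr14:45329587-45329615 for Psmc6, chr11:107479278-107479299 for Psmd12, chr5:123228149-123228177 for Psmd9 and chr11:30771758-30771786 for Psme4.
Psmb5: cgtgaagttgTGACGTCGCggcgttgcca
Psmb6: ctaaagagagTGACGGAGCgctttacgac
Psmd9: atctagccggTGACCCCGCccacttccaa
Psmc6: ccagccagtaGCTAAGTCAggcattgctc
Psmd12: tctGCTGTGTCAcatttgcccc
Psme4: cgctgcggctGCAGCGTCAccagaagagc

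The first capital base stood at -47 relative to the RefSeq start in Psmb5, -9 in Psmb6 and -31 in Psmd9, where the motif reads forward. It stood at -227 in Psmc6, -247 in Psmd12 and -7 in Psme4, where the capitals are the reverse complement. The strict forms TGACTCAGC and TGAGTCAGC, the first of which is also a TGACNNNGC match, were in 0 of the 38 windows and in 0.503% and 0.481% of all promoters. CCAAT was in 12 of the 38 (31.6%) against 41.1% of all promoters, the heat shock pair GAANNTTC in 2 (5.26%) against 9.04%, and the cAMP response element TGACGTCA in 0 against 2.03%. A match describes letters and not a bound site, and enhancers and regions farther away were not searched.

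In control cells the core and cap genes spanned a narrow range of levels. The 14 core and 17 cap genes lay between 101 TPM (Psma5) and 544 TPM (Psmd8), and their TPM summed to 2767 for the core and 2925 for the cap. Psmd8, a lid subunit, stood apart from the other 30 at 416 TPM in hypoxia to 633 TPM in ER stress, which was 1.75 to 2.42 times the level of the beta ring gene Psmb6. The summed TPM of the alpha ring was 0.738 to 0.863 times that of the beta ring in the 7 libraries. In control, the activators Psme2 (116 TPM) and Psme3 (129 TPM) lay within this range, while Psme1, Psme4, Psmf1 and all 7 assembly factors lay below it, the assembly factors between 16.8 TPM (Psmg4) and 54.5 TPM (Psmd5).

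**Figure D1:**
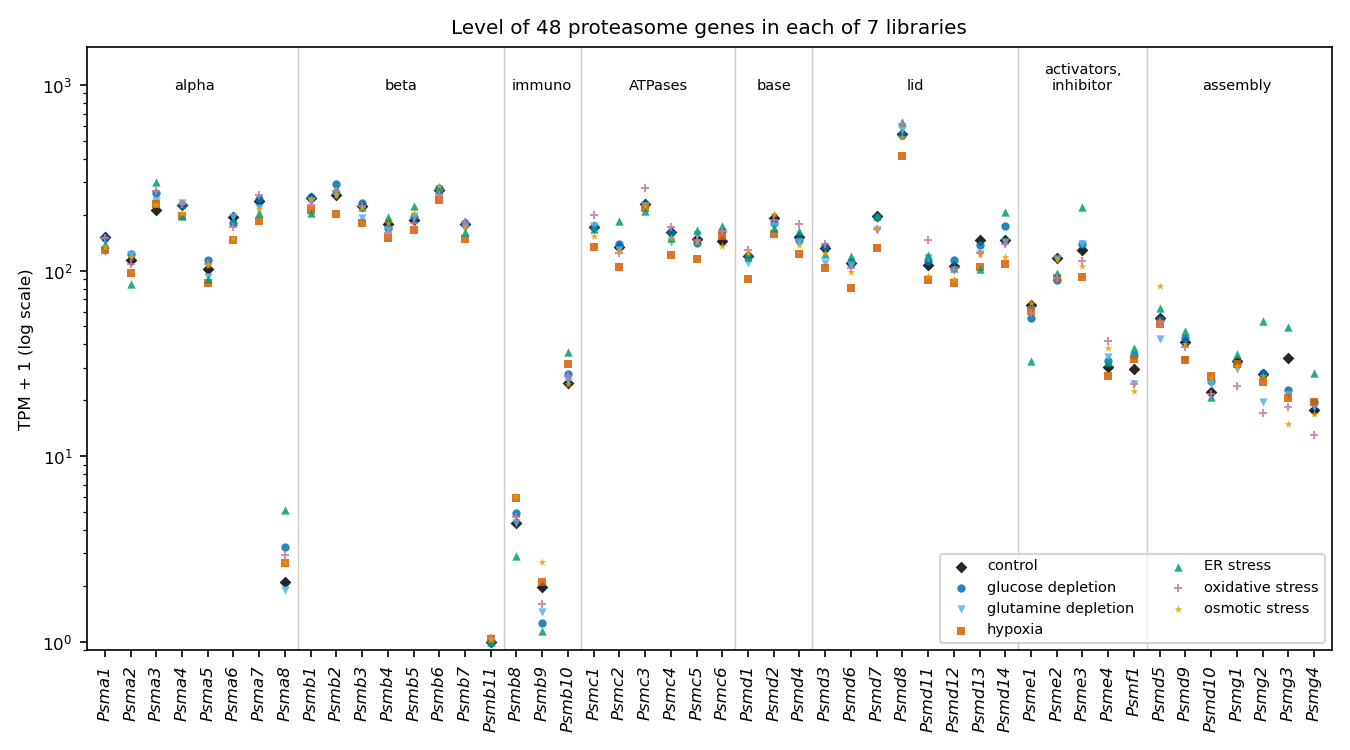
TPM + 1 on a log axis of all 48 proteasome genes, grouped by role, with a symbol for each of the 7 libraries (1 library per condition, no error bars). Core and cap genes lie close together near or above 100 TPM in every library, Psmd8 lies above them, and assembly factors and immunoproteasome genes lie below.

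The catalytic beta subunits illustrate how close the libraries were. Psmb5 (chymotrypsin-like site) was at 185 TPM in control, 193 in glucose depletion, 193 in glutamine depletion, 165 in hypoxia, 222 in ER stress, 179 in oxidative stress and 204 in osmotic stress. Psmb6 (caspase-like site) was at 271, 276, 262, 238, 273, 254 and 285 TPM in the same order, and Psmb7 (trypsin-like site) at 178, 180, 170, 148, 160, 182 and 171 TPM. Hypoxia was the lowest library for all 3. Psma1, an alpha ring subunit, was at 151, 149, 124, 128, 139, 149 and 133 TPM, with control highest and glutamine depletion lowest. Psmd1, the large scaffold of the base, was at 120, 119, 109, 89.3, 117, 128 and 124 TPM, with hypoxia lowest. Exons of Psmb7 overlap Nek6 on the opposite strand over 11.8% of their bases, and Kallisto at its default settings does not use strand, so reads of the pair cannot be told apart there.

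The difference between the highest and the lowest of the 7 libraries was under 1 on the log2(TPM + 1) scale for all 31 core and cap genes. It was 0.24 (Psma4) to 0.94 (Psmd14) with a median of 0.45, made up of 0.40 for the core and 0.52 for the cap. The median was 1.04 over the 12909 genes, of which 47.7% were under 1. Among the 1363 genes with a mean TPM in the range of core and cap, the median was 0.70 and 68.2% were under 1. The 7 assembly factors had a median of 0.95, and 4 of them were under 1. Among the 45 proteasome genes, 6 reached 1, namely Psmg3 (1.75), Psmg2 (1.65), Psme3 (1.25), Psmg4 (1.11), Psmb8 (1.07) and Psme1 (1.03), and none of them is a core or cap subunit.

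A change of more than 2-fold against control on the log2(TPM + 1) scale, which understates changes of low genes, is called a rise or a fall here. By this measure 0 of the 45 genes rose in any condition. Psme1 fell in ER stress and Psmg3 fell in osmotic stress, and these were the only falls. Over all 12909 genes, the shares that rose and fell were 1.83% and 2.41% in glucose depletion, 3.21% and 3.21% in glutamine depletion, 3.57% and 2.64% in hypoxia, 8.60% and 11.0% in ER stress, 3.94% and 4.85% in oxidative stress, and 3.08% and 8.76% in osmotic stress. Past 1.5-fold in either direction were 0 of 45 in glucose depletion (9.70% of all genes), 1 in glutamine depletion (18.1%), 1 in hypoxia (15.3%), 5 in ER stress (40.2%), 2 in oxidative stress (23.5%) and 1 in osmotic stress (26.1%). All 10 of these values belonged to activators, assembly factors or Psmb8, and 0 to the core or cap. Among the 1363 genes in the TPM range of core and cap, the shares past 1.5-fold were lower than over all genes. They were 1.83% in glucose depletion, 6.38% in glutamine depletion, 7.56% in hypoxia, 35.4% in ER stress, 7.78% in oxidative stress and 6.46% in osmotic stress.

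**Figure D2:**
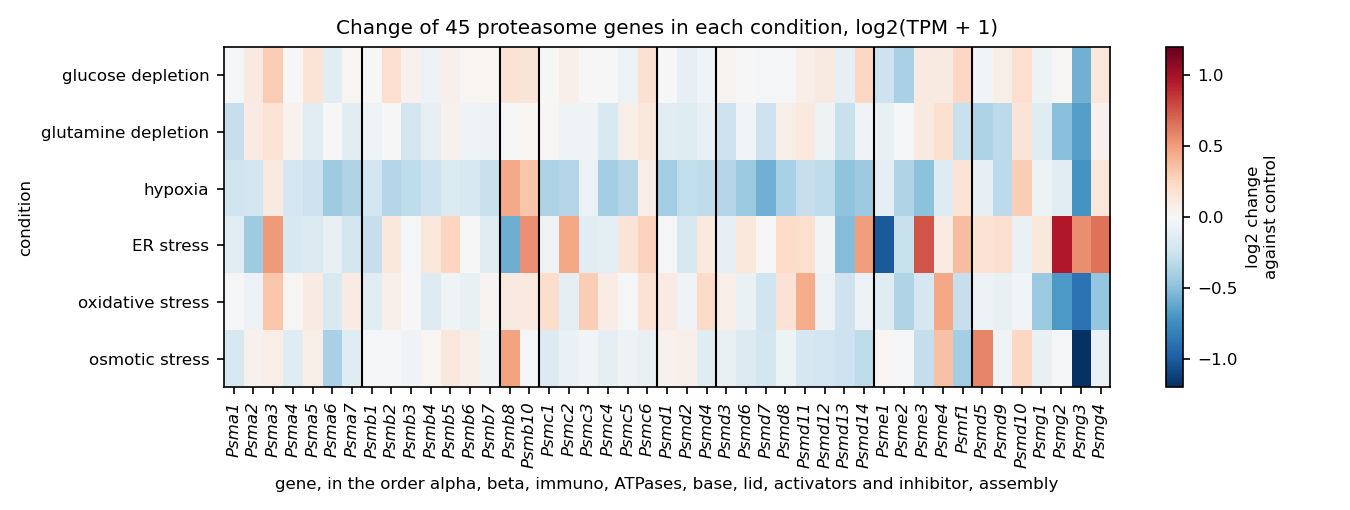
Log2(TPM + 1) change against the control library (colour, blue lower and red higher) of the 45 proteasome genes (columns, by role, with lines between roles) in the 6 conditions (rows). The hypoxia row is blue in 29 of the 31 core and cap columns, and the deepest colours are Psme1 and Psmg2 in ER stress and Psmg3 in osmotic stress.

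Hypoxia was the condition in which core and cap genes were lower together. Of the 45 genes, 38 were below control, beside 55.5% of all genes, with a median log2 change of -0.27 against -0.048 for all genes and -0.071 for genes in the TPM range of core and cap. Hypoxia was the lowest of the 7 libraries for 27 of the 45 genes and for 24 of the 31 core and cap genes, beside 12.2% of all genes. The summed TPM of the core was 2351, a difference of -15.0% from control, and that of the cap was 2318, a difference of -20.7%. None of these genes passed the 2-fold measure, so the pattern is many small differences of the same sign between single libraries.

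Within the complex, the lid was lowest in hypoxia by median and by mean (-0.41 for both). The lid had a median of -0.41 with 8 of 8 genes below control, the ATPases -0.35 with 5 of 6, the base scaffold and ubiquitin receptor genes -0.30 with 3 of 3, the beta ring -0.25 with 7 of 7 and the alpha ring -0.24 with 6 of 7. The order of the other parts depends on the summary, since the ATPases had a mean of -0.24, close to the beta ring (-0.25) and the alpha ring (-0.23). Psmd7, the lid partner of the deubiquitinase Psmd14, had the lowest value of the core and cap at -0.58. Psmd7 was at 196 TPM in control, 192 in glucose depletion, 165 in glutamine depletion, 131 in hypoxia, 197 in ER stress, 166 in oxidative stress and 168 in osmotic stress. Hypoxia was thus the lowest of its 7 libraries, and Psmd14 itself (-0.44), Psmd13 (-0.48) and Psmd6 (-0.44) had values close to it. Only Psma3 (0.11) and Psmc6 (0.083) of the core and cap were above control in hypoxia.

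Outside core and cap, hypoxia was mixed. The alpha ring chaperone Psmg3 was at -0.72, past 1.5-fold, and the activator Psme3 at -0.50. The immunoproteasome genes Psmb8 (0.45) and Psmb10 (0.33), the base chaperone Psmd10 (0.29), the inhibitor Psmf1 (0.17) and Psmg4 (0.14) were above control. Psmd10 was at 21.1 TPM in control, 24.4 in glucose depletion, 23.5 in glutamine depletion, 26.1 in hypoxia, 19.9 in ER stress, 20.6 in oxidative stress and 25.3 in osmotic stress, so hypoxia was its highest library. Summed fibroblast markers were lowest in ER stress at 8766 TPM and highest in hypoxia at 16304 TPM, against 14168 TPM in control. Their median log2 change in hypoxia was 0.12, with 0 of 10 past 2-fold. TPM is a share of a fixed total, and the part of these markers in the lower proteasome values was not tested.

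**Figure D3:**
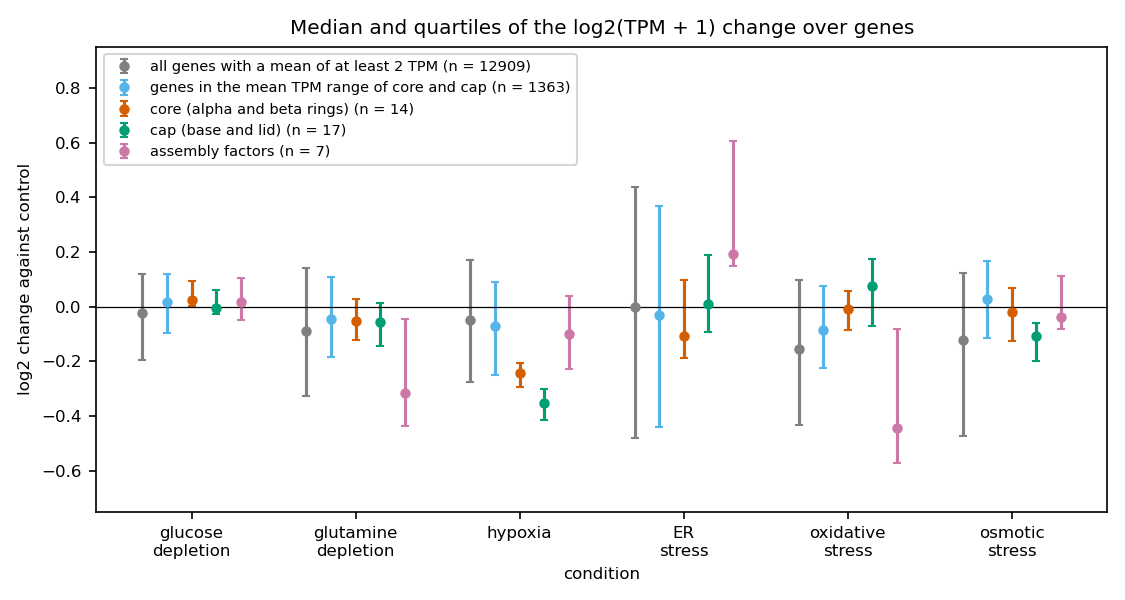
Median (point) and quartiles over genes (bars, not replicate error) of the log2(TPM + 1) change in each condition for the core, the cap and the assembly factors, beside all 12909 genes and the 1363 genes in the TPM range of core and cap. Core and cap medians lie at -0.24 and -0.35 in hypoxia, and the assembly factor median lies at -0.44 in oxidative stress and at 0.19 in ER stress.

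In ER stress the members spread in both directions around a median near 0. The median was 0.0081, 21 of 45 genes were below control (48.5% of all genes), and the SD over members was 0.36, against 1.03 over all genes. The summed TPM of the core differed from control by -0.765% and that of the cap by 5.80%. ER stress was the highest library for 18 of the 45 genes, beside 33.2% of all genes. The 10 fibroblast markers had a median of -0.86 in this library and 3 of them fell past 2-fold, with a summed TPM of 8766 against 14168 in control; their part in these values was not tested.

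The genes farthest above control in ER stress were assembly factors and an activator. Psmg2, which pairs with Psmg1 to start the alpha ring, was at 26.6 TPM in control, 26.9 in glucose depletion, 18.5 in glutamine depletion, 24.1 in hypoxia, 52.7 in ER stress, 16.2 in oxidative stress and 26.2 in osmotic stress. Psme3, a nuclear activator that promotes degradation without ubiquitin, was at 129, 138, 139, 91.1, 219, 112 and 105 TPM in the same order. ER stress was highest for both, at log2 changes of 0.96 and 0.76, which pass 1.5-fold and not 2-fold. Psmg4 (0.65), Psmg3 (0.56), Psmb10 (0.55), Psma3 (0.51), Psmd14 (0.50) and Psmc2 (0.47) followed. Psma3, an alpha ring subunit, was at 211, 261, 237, 228, 301, 267 and 223 TPM, with control the lowest of the 7 libraries.

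Psme1 fell in ER stress. This gene encodes a subunit of the interferon-inducible activator that caps the barrel, and it was at 64.6 TPM in control, 54.2 in glucose depletion, 60.6 in glutamine depletion, 59.3 in hypoxia, 31.6 in ER stress, 58.2 in oxidative stress and 65.7 in osmotic stress. The other 6 libraries lay between 54.2 and 65.7 TPM, so ER stress stood alone, at a log2 change of -1.01 that is just past 2-fold. Psme2, its partner 5911 bases away on chromosome 14, was at 116, 88.2, 114, 89.7, 96.3, 89.9 and 115 TPM, a log2 change of -0.26 in ER stress. The TPM of Psme2 was 1.79 times that of Psme1 in control and 3.04 times in ER stress, and 1.51 to 1.88 times in the other 5 libraries. Reads of Psme2 can be shared with its close copy Psme2b, which was at 0.703 TPM in control and up to 6.24 TPM in glutamine depletion, so the level of Psme2 is uncertain.

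Psmb8 (-0.59), Psmd13 (-0.52), Psma2 (-0.43) and Psmb1 (-0.27) were next below control in ER stress. Psmd13, a lid subunit, was at 146 TPM in control, 136 in glucose depletion, 121 in glutamine depletion, 104 in hypoxia, 101 in ER stress, 123 in oxidative stress and 122 in osmotic stress, so control was its highest library. Its exons overlap Sirt3 on the opposite strand over 10.1% of their bases. Among genes of the alpha ring, 6 of 7 were below control in ER stress with a median of -0.18, and Psma3 was the exception. Psma8, the testis form that lies below the 2 TPM limit, was at 1.10 TPM in control and 4.17 TPM in ER stress; it is a close paralog of Psma7, with which reads can be shared.

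In oxidative stress the medians of core and cap lay above the all-gene median and that of the assembly factors lay below it. The median of the 45 genes was -0.046 with 27 below control (66.0% of all genes). The median of all genes was -0.16, and that of genes in the TPM range of core and cap was -0.086. Shifts in this library are best read against these values. The core had a median of -0.0094 and the cap 0.077, and their summed TPM differed from control by 0.162% and 5.81%. Oxidative stress was the highest library for 10 of the 45 genes, 9 of them core or cap, beside 7.59% of all genes. All 7 assembly factors were below control, with a median of -0.44 that also lay below the all-gene median, although the 3 chaperones of the base (-0.037 to -0.090) lay above it.

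The highest values in oxidative stress were Psme4 (0.47), Psmd11 (0.45) and Psma3 (0.34), followed by Psmc3 (0.29). Psme4, a large nuclear activator, was at 29.1 TPM in control, 31.5 in glucose depletion, 33.4 in glutamine depletion, 26.0 in hypoxia, 31.2 in ER stress, 40.5 in oxidative stress and 37.5 in osmotic stress. Psmd11, a lid subunit that bridges lid and base, was at 106, 112, 115, 87.5, 121, 145 and 92.2 TPM. Oxidative stress was the highest library for both, and hypoxia was the lowest. Exons of Psmc3 overlap Slc39a13 (mean of 99.3 TPM) on the opposite strand over 8.25% of their bases, so its value is uncertain. The 6 genes with TGACNNNGC in the promoter window had a median of -0.062 (range -0.092 to 0.47) in this condition. The 32 without had a median of -0.041, and in ER stress the medians were 0.14 and 0.052. In glucose depletion, glutamine depletion, hypoxia and osmotic stress the medians with the motif were 0.089, 0.0016, -0.18 and 0.017. Without it they were -0.0024, -0.049, -0.30 and -0.076. The ranges of both sets overlapped in every condition, and the difference was not tested.

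In osmotic stress Psmg3 fell and the lid was slightly lower. The median of the 45 genes was -0.057 with 32 below control (61.6% of all genes), beside an all-gene median of -0.12. All 8 lid genes (median -0.21) and all 6 ATPase genes (median -0.083) were below control, and the cap summed to 2717 TPM, a difference of -7.11%. The core differed by -2.61%, with 8 of 14 genes below control and Psma6 lowest at -0.39. The medians of the ATPases and of the whole cap (-0.11) lay above that of all genes, so their sign changes once values are centred on all genes, and that of the lid does not. All 3 medians lay below that of genes in the TPM range of core and cap, which was 0.027.

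In nutrient depletion the values of single proteasome genes spread least around their median, and the same was true of all genes. In glucose depletion the median was 0.020 with 19 of 45 below control (53.7% of all genes), the SD over members was 0.16, and the core and cap sums differed by 3.92% and 0.676%. The ends of the range were Psmg3 (-0.58) and Psme2 (-0.39) below control and Psma3 (0.30) and Psmf1 (0.25) above it. In glutamine depletion the SD over members was 0.18 and the median was -0.054 with 30 of 45 below control (60.0% of all genes) beside an all-gene median of -0.089, and the sums differed by -2.93% and -3.28%. Psmg3 (-0.67, past 1.5-fold) and Psmg2 (-0.50) were lowest, Psme4 (0.19) and Psma3 (0.17) were highest, and the assembly factors had a median of -0.32. The SD over all genes was 0.699 in glucose depletion and 0.704 in glutamine depletion, the lowest of the 6 conditions. Among genes in the TPM range of core and cap it was 0.36 and 0.42, also the lowest.

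Among the roles, the assembly factors varied most between conditions by median range, at 0.95 beside 1.04 over all genes. Psmg3, which works with Psmg4 on the alpha ring and lies at chr5:139823592-139826885 on the minus strand (GRCm38), was at 32.9 TPM in control, 21.7 in glucose depletion, 20.4 in glutamine depletion, 19.6 in hypoxia, 48.9 in ER stress, 17.3 in oxidative stress and 13.9 in osmotic stress. Only ER stress was above control, and the change in osmotic stress was -1.19, past 2-fold. Psmg4 was at 16.8, 18.6, 17.5, 18.6, 27.0, 12.0 and 15.9 TPM in the same order. Psmg1 was at 31.6, 30.3, 28.5, 30.3, 34.6, 22.9 and 29.7 TPM. For Psmg1, Psmg2 and Psmg4, oxidative stress was the lowest library, and ER stress was the highest for all 4 Psmg genes. In oxidative stress the log2 changes were -0.89 for Psmg3, -0.69 for Psmg2, -0.46 for Psmg4 and -0.44 for Psmg1, and Psmg3 and Psmg2 were past 1.5-fold.

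Of the chaperones of the base, Psmd5 stood apart in osmotic stress. Psmd5 was at 54.5 TPM in control, 53.1 in glucose depletion, 41.9 in glutamine depletion, 50.8 in hypoxia, 61.6 in ER stress, 51.8 in oxidative stress and 82.1 in osmotic stress. Its log2 change of 0.58 in osmotic stress was the highest of the 45 genes there and just short of 1.5-fold. Psmd9 was at 40.4, 42.5, 32.2, 32.2, 46.2, 37.9 and 39.2 TPM, with both glutamine depletion and hypoxia low and ER stress highest, as for the Psmg genes. The inhibitor Psmf1 was at 28.7, 34.3, 23.6, 32.3, 37.4, 23.6 and 21.4 TPM, above control in glucose depletion, hypoxia and ER stress and below it in the other 3 conditions.

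**Figure D4:**
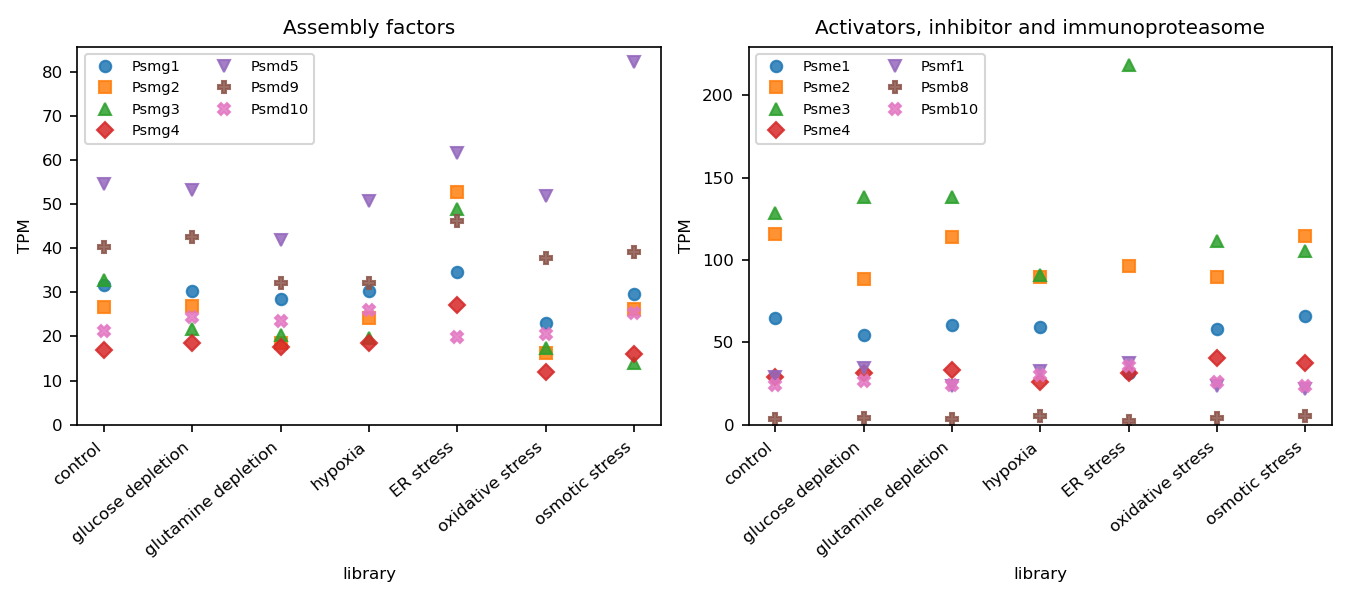
TPM (linear axis from 0) in each of the 7 libraries of the 7 assembly factors (left) and of the activators Psme1 to Psme4, the inhibitor Psmf1 and the immunoproteasome genes Psmb8 and Psmb10 (right), with 1 point per library and no error. Psmg2 and Psmg3 are highest in ER stress (52.7 and 48.9 TPM), Psmd5 is highest in osmotic stress (82.1 TPM), and Psme3 is highest in ER stress (219 TPM) where Psme1 is lowest (31.6 TPM).

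The immunoproteasome genes were far below their constitutive partners. Psmb8, the partner of Psmb5, was at 3.38 TPM in control, 3.96 in glucose depletion, 3.39 in glutamine depletion, 4.99 in hypoxia, 1.92 in ER stress, 3.73 in oxidative stress and 5.13 in osmotic stress, which is 0.862% of Psmb5 in ER stress to 3.02% in hypoxia and 1.83% in control. Psmb10, the partner of Psmb7, was at 23.9, 26.7, 24.3, 30.3, 35.4, 25.9 and 23.4 TPM, or 13.4% of Psmb7 in control, 20.6% in hypoxia and 22.1% in ER stress. Psmb9, the partner of Psmb6, was below the 2 TPM limit at 0.989, 0.260, 0.451, 1.10, 0.153, 0.603 and 1.70 TPM. Psmb8 and Psmb9 were thus lowest in ER stress, where Psmb10 was highest. Psmb8 (chr17:34197721-34201454) and Psmb9 (chr17:34181987-34187764) flank the peptide transporter gene Tap1 in GRCm38, with 495 bases between Psmb8 and Tap1 and 212 exon bases of Psmb9 shared with Tap1 on the opposite strand, so the low values of Psmb9 are uncertain. Psmb11, the thymus form, was at or near 0 TPM in every library.

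Of 8 genes of antigen presentation and its control above a mean of 2 TPM, 0 rose in any condition. Over all genes, 1.83% (glucose depletion) to 8.60% (ER stress) rose. Irf1, a transcription factor that drives immunoproteasome genes, was at 26.6 TPM in control, 20.4 in glucose depletion, 10.0 in glutamine depletion, 23.3 in hypoxia, 6.40 in ER stress, 14.5 in oxidative stress and 3.36 in osmotic stress. It fell in 3 conditions, with a log2 change of -1.32 under glutamine depletion, -1.90 under ER stress and -2.66 under osmotic stress, where Psmb8 was at its highest.

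Other proteins that bind or build the proteasome followed a similar range. Of 9 such genes, 0 rose in any condition and 1 fell, which was Pomp in ER stress. In that condition 8.60% of all genes rose and 11.0% fell. Pomp, the factor that matures the beta rings, was at 281 TPM in control, 310 in glucose depletion, 229 in glutamine depletion, 209 in hypoxia, 130 in ER stress, 211 in oxidative stress and 260 in osmotic stress, a log2 change of -1.11 in ER stress. ER stress was its lowest library, while the Psmg chaperones were highest there. Adrm1, a ubiquitin receptor of the base, was lowest in hypoxia at 64.6 TPM against 103 TPM in control (-0.67), and the list had a median of -0.28 in hypoxia.

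Genes that bring substrate to the proteasome included larger changes than its subunits. Among 9 shuttle and AN1 finger genes, 2 rose in ER stress (8.60% of all genes) and 2 in oxidative stress (3.94%). The same pair rose in both. Zfand2a, whose protein binds the proteasome under arsenite, was at 24.3 TPM in control, 18.2 in glucose depletion, 24.2 in glutamine depletion, 20.0 in hypoxia, 66.5 in ER stress, 118 in oxidative stress and 37.1 in osmotic stress, with log2 changes of 1.42 in ER stress and 2.23 in oxidative stress. Sqstm1, an autophagy receptor for ubiquitinated proteins, was at 365 TPM in control, 1507 in ER stress (2.04) and 801 in oxidative stress (1.13).

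Nfe2l1 and the genes that process NRF1 form a list whose RNA was higher in ER stress. The list holds 8 genes above a mean of 2 TPM, most of which also serve ER-associated degradation. Its median was 0.80 in ER stress, and 3 of the 8 rose, beside 8.60% of all genes. The median of the 45 proteasome genes there was 0.0081, and that of the core and cap subunits was -0.028. Release and activity of NRF1 were not measured, and a link between these values was not tested. Syvn1, an ER ubiquitin ligase, rose from 39.1 to 258 TPM (2.69), its partner Sel1l from 85.2 to 497 TPM (2.53), and Ufd1, a cofactor of the extraction ATPase Vcp, from 50.5 to 105 TPM (1.04). Nfe2l1, which encodes NRF1, was at 228 TPM in control, 223 in glucose depletion, 250.1 in glutamine depletion, 267 in hypoxia, 413 in ER stress, 205 in oxidative stress and 218 in osmotic stress. Its log2 change in ER stress was 0.86 and that of Vcp was 0.75, both short of 2-fold. In the other 5 conditions, 0 of the 8 genes rose or fell.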

How the data were processed

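MEF libraries (1 per condition) were made from mRNA with a stranded kit and sequenced from both ends. Kallisto (version 0.43.1 per the submitters' processing notes) was run by the authors at default settings against GRCm38 cDNA of Ensembl release 90. The unit of the deposited values is TPM, added up over all transcripts with the same gene symbol. No counts were used and depth is unknown. Samples were grouped by their treatment labels. Values were transformed to log2(TPM + 1), each condition was set against the control library, and changes past 2-fold were counted among genes averaging 2 TPM or more. Any such proteasome gene could be named. All 7 values are given for the extremes of each condition and for the catalytic, immunoproteasome, activator, inhibitor and assembly genes. The genes and lists were chosen with earlier results of these data known. Locations are from GENCODE M21 (GRCm38). Results were recomputed with a pseudocount of 0.1 or 5 TPM, no expression limit or a mean limit of 10 TPM, centring on all genes, rescaling without mitochondrially encoded transcripts, a threshold of 1.5-fold or 3-fold, and medians without immunoproteasome genes or replaced by means. The steps were tested on simulated data. Software was Python 3.11.15 with numpy 2.4.6 and pandas 2.3.3, and plots were drawn in matplotlib 3.10.9. Some results of the other gene lists are not reported here.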

Additional observations from a re-analysis of the deposited data

How the results depend on the processing

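The medians in glucose depletion (0.018 to 0.042), hypoxia (-0.30 to -0.22) and ER stress (0.0077 to 0.062) kept their sign under 8 alternatives, whereas those in glutamine depletion (-0.081 to 0.035), oxidative stress (-0.053 to 0.11) and osmotic stress (-0.074 to 0.063) did not. Core and cap alone, which were not among these alternatives, had a median of -0.028 in ER stress. With a pseudocount of 5 TPM, 0 genes fell in ER stress, because Psme1 was then at -0.92. Without a filter, and after removal of mitochondrially encoded genes, 1 gene (Psma8) rose in ER stress. At 1.5-fold, 1 gene was lower in glutamine depletion, 1 in hypoxia, 2 in ER stress and 2 in oxidative stress, and 3 were higher in ER stress. At 3-fold, 0 fell in ER stress and 0 in osmotic stress. The fall of Psmg3 in osmotic stress was -1.24 and -1.01 with pseudocounts of 0.1 and 5 TPM and -1.07 after centring. No paired analysis was possible because each condition has 1 library, and for the same reason no library could be left out. Protein identity between immunoproteasome and constitutive subunits was planned and not run.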
